A study of Mus musculus with 2 samples.

Results

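The nuclear genes of the mouse oxidative phosphorylation system were examined in nuclear RNA of macrophages. Members were the protein-coding genes whose symbol starts with Nduf, Uqcr or Atp5, or with Cox followed by 4, 5, 6, 7 or 8. The rule took 90 of 55536 annotated genes (22028 of them protein-coding) and used no measured value. The 90 entries carry 89 symbols, since Atp5o is annotated as 2 entries, of which 1 had 0 counts in both libraries. The name "respiratory chain subunits" covers most but not all of them: 8 are complex I assembly factors (Ndufaf genes), and the Atp5 genes belong to ATP synthase, which uses the gradient that the chain builds. The rule also leaves out some subunits by name, namely complex II (Sdh genes), cytochrome c1 (Cyc1) and the ATP synthase subunit Usmg5. Another 13 symbols begin as the rule asks but are not annotated as protein-coding, among them Ndufb1-ps, which RefSeq lists as the complex I gene Ndufb1.

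The respiratory chain passes electrons from NADH through complex I to ubiquinone, then through complex III and cytochrome c to complex IV, where oxygen is reduced. Complexes I, III and IV pump protons across the inner mitochondrial membrane, and ATP synthase lets them flow back while it makes ATP. A few central subunits are encoded by mitochondrial DNA, and all others are transcribed in the nucleus, translated in the cytosol and imported. Macrophages stimulated through Toll-like receptor 4, the receptor for lipid A, are known for a shift from respiration toward glycolysis.

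Total RNA depleted of ribosomal RNA was sequenced from the nuclear fraction, which the labels also call nucleoplasmic, of macrophages grown from bone marrow of the mouse strain C57BL/6J. The cells of the only group were exposed to lipid A (100 ng/ml) for 12 h, rested in its absence for another 12 h, and met it again at 100 ng/ml for 50 min. Its 2 libraries are labelled biological replicates 1 and 2, made from 500 ng and 1 µg of RNA. No genotype, age or sex is given, both carry the same donor entry, and no separate animals or cultures are named. SDs therefore measure only the spread between these libraries, which may be technical, and replicate and RNA input cannot be told apart. Libraries of untreated cells, of cells stimulated once or of whole-cell RNA were not analysed here, so levels are described and no response to lipid A can be.

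Annotated genes received 20612114 counts in replicate 1 and 22772087 in replicate 2, and a count of 0 allows 3 counts, which is 0.146 and 0.132 CPM. The 8 macrophage markers checked, such as Lyz2 and Adgre1, had mean levels of 42.6 to 1010 TPM (a level per transcript length, scaled to a fixed total per library). Markers of T cells, B cells, neutrophils, fibroblasts and cardiac muscle stayed at or below 0.91 TPM in each library, the highest being S100a9 of neutrophils in replicate 2. The 2 natural killer markers and the 3 skeletal muscle markers had 0 counts. Intervals, limits and p-values below cover counting error only.

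Promoter windows from RefSeq (GRCm38.p6, 250 bases before to 50 after a transcript start) were at hand for 71 of the 89 symbols, in 76 windows. Searched on both strands were the palindrome bound by the factor NRF1 (its letters are the first capitals of the Atp5k window below), CCGGAAG, a core of ETS factors such as GABP, and the motif of YY1, whose start can overlap the end of the ETS core. At least 1 of the 3 was found in 32.9% of the member windows, against 10.1% of all 32851 windows and 13.3% of the 21262 windows of protein-coding genes. NRF1 letters were in 9.21% of member windows, 0.971% of all windows and 1.33% of those of protein-coding genes. In the same order, ETS letters were in 21.1%, 8.86% and 11.6%, and YY1 letters in 6.58%, 0.633% and 0.889%. The member windows had a median of 19 CpG dinucleotides, against 7 in all windows and 13 in those of protein-coding genes. Such a match is a description of the letters and not a bound site. Member genes with a match had a median level of 6.65 TPM (25 entries), and those without had 5.215 TPM (47 entries, both of Atp5o included). The entries without a match also include the tissue-restricted isoforms Cox6b2, Cox7a1, Cox7b2 and Cox8b, with mean levels of 0 to 0.225 TPM. No entry with a match is a tissue-restricted isoform, so the groups differ in make-up, and a link between letters and level was not tested.

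The windows below are shown because they belong to the isoform pair Cox8a and Cox8b, which stood apart in level, and to Atp5k, the member that differed most between libraries. Sequences run 5′ to 3′ on the gene's strand, with capitals marking the NRF1 letters or the ETS letters, here in their complement CTTCCGG. The Cox8a window (chr19:7217567-7217866, minus strand) was 56.0% GC with 19 CpG and held ETS letters at bases 246 to 252 and 283 to 289. That of Cox8b (chr7:140900397-140900696, minus strand) was 48.3% GC with 2 CpG and held none of the letters. Other isoform pairs did not all differ in this way. The Cox6b1 window held ETS letters and that of Cox6b2 none, but the windows of Cox7a2, Cox7a1, Cox7b and Cox7b2 all held none. The Atp5k window (chr5:108434350-108434649, minus strand) held the palindromic NRF1 letters at bases 201 to 210 and ETS letters at 263 to 269.
Cox8a: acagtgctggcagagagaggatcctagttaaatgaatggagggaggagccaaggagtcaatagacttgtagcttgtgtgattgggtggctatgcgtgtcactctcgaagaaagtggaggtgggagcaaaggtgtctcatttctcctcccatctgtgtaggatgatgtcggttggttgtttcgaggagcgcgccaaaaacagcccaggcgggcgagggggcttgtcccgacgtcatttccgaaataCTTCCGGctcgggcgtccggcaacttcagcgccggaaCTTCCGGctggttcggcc
Cox8b: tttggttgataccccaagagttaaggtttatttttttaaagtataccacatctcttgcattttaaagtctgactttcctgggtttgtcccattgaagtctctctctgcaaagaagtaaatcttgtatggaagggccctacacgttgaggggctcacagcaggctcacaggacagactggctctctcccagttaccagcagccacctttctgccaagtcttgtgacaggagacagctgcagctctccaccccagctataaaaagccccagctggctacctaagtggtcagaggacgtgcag
Atp5k: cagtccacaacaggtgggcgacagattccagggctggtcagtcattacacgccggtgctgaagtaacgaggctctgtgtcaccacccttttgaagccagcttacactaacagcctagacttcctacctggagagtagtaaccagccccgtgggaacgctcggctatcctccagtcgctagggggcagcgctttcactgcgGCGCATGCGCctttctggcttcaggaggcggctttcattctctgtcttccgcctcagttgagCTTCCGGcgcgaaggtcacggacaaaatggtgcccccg

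The oxidative phosphorylation genes were present in nuclear RNA at moderate levels. Of the 90 members, 82 had 10 or more counts over both libraries, 43 had 100 or more in each, and 6 had 0 in both. Their median mean level over all 90 was 6.31 TPM, or 2.67 as log2(TPM + 0.1). The 12140 protein-coding genes that reached 10 counts had a median of 3.585 TPM and a 90 percentile of 28.7 TPM. Of the 90 members, 61 exceeded the median and 3 exceeded the 90 percentile. The members together took 0.0816% and 0.0862% of counts. As another set of short housekeeping genes, 92 cytosolic ribosomal protein genes had a median of 23.4 TPM, with 33 above the 90 percentile. Both libraries ranked the tested members alike, with a Spearman correlation of 0.941 across 82 genes, which share their libraries and are not independent replicates. The SD between libraries was a median of 14.3% of the mean. Only 8 of the 81 neighbouring pairs in the order of levels were separated beyond the range of their libraries, among them Atp5b over Cox4i1, Cox4i1 over Atp5a1 and Atp5a1 over Cox7c. The values in the next paragraphs are those of the gene-level table. The index-based transcript table, made from the reads and a transcript index, put another member highest among the assembly factors (Ndufaf8) and the membrane part and stalk of ATP synthase (Atp5k). It put another member lowest in the complex I core (Ndufv2), the assembly factors (Ndufaf4), complex III (Uqcrfs1) and the membrane part and stalk (Atp5g2). Highest and lowest were the same in both tables for the complex I accessory subunits, ubiquitous complex IV and F1.

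**Figure D1:**
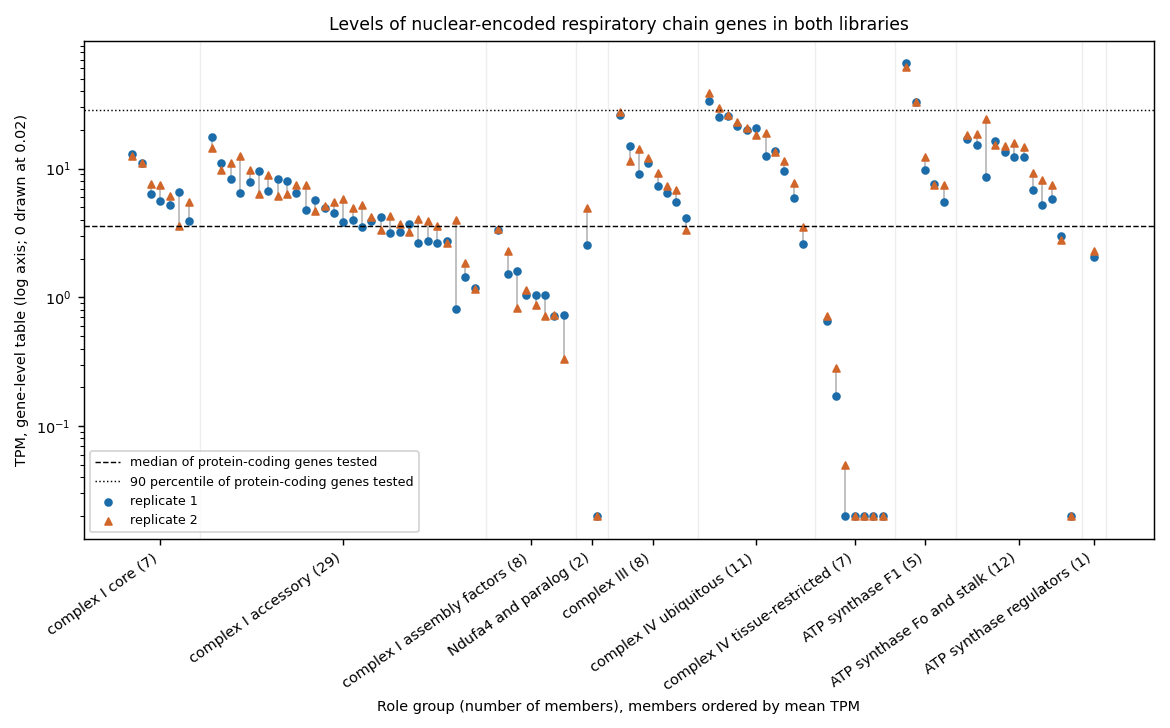
Each member's TPM in replicate 1 (circles) and replicate 2 (triangles) on a log axis, by role group and ordered by mean TPM within it, with values of 0 drawn at 0.02. Dashed and dotted lines mark the median and the 90 percentile of protein-coding genes tested; the assembly factors and the tissue-restricted isoforms lie below the dashed line.

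The 7 nuclear-encoded core subunits of complex I carry its flavin, iron-sulfur clusters and quinone site. Their median was 6.53 TPM, and all 7 exceeded the median protein-coding gene. Ndufs1, an iron-sulfur subunit of the arm that takes up electrons, was highest at 12.96 and 12.47 TPM in replicates 1 and 2 (12.7 ± 0.346, SD, n = 2). Ndufs3, a subunit of the same arm, had 6.34 and 7.65 TPM. The lowest was Ndufs8, another iron-sulfur subunit, at 3.93 and 5.48 TPM. The values of Ndufs1 did not overlap those of Ndufs3 or Ndufs8. The place of Ndufs8 depended on the table: in the index-based one it had 6.58 and 5.30 TPM, above Ndufs3 with 4.95 and 2.56 TPM.

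The 29 accessory subunits of complex I had a median of 4.815 TPM, and 20 of them exceeded the median protein-coding gene. Ndufa3, a small membrane-arm subunit, led with 17.47 and 14.50 TPM (16.0 ± 2.10, SD, n = 2). Ndufb8, also of the membrane arm, had 11.04 and 9.84 TPM, and Ndufc2 had 8.28 and 11.01 TPM. Ndufb6 was lowest with 1.18 and 1.17 TPM, from 17.33 and 18.78 counts. Counts and TPM need not move alike for these short genes. Ndufc1 had 17 and 31 counts but 0.81 and 3.99 TPM, as its deposited length was 850 bases in replicate 1 and 412 in replicate 2.

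The 8 Ndufaf assembly factors, which help build complex I without staying in it, had a median of 1.025 TPM, and 0 of 8 exceeded the median protein-coding gene. Ndufaf3, which acts early in assembly, was highest at 3.31 and 3.40 TPM. Ndufaf8 had 1.51 and 2.28 TPM, and Ndufaf7, a methyltransferase, had 1.61 and 0.82 TPM. Ndufaf5, a hydroxylase that acts on Ndufs7, was lowest with 0.73 and 0.33 TPM. The range of the assembly factors, 0.53 to 3.355 TPM in mean level, lay below the lowest core subunit. Counts from 11 to 117 stand behind these values.

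Complex III, which takes electrons from ubiquinol, had 8 members with a median of 9.96 TPM, and all 8 exceeded the median protein-coding gene. The hinge protein Uqcrh was highest at 25.97 and 27.34 TPM (26.7 ± 0.969, SD, n = 2). Uqcrb followed with 14.88 and 11.45 TPM and Uqcrq with 9.14 and 14.25 TPM, both small subunits whose values overlapped. The core protein Uqcrc2 was lowest at 4.14 and 3.34 TPM, against 11.15 and 12.14 TPM for its partner core protein Uqcrc1. The pair of core proteins, which stand in equal number in the complex, did not overlap in nuclear RNA level.

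The 11 ubiquitous complex IV genes had the highest median of the role groups, 19.5 TPM, and 10 of 11 exceeded the median protein-coding gene. Cox4i1, the largest nuclear-encoded subunit and a regulator of the enzyme, had 33.73 and 38.61 TPM (36.2 ± 3.45, SD, n = 2) and lay above the 90 percentile. Cox7c, a small membrane subunit, had 25 and 29.67 TPM, and Cox5a, on the matrix side, had 25.79 and 26.02 TPM. Cox7b was lowest at 2.61 and 3.53 TPM. Cox7a2l, a supercomplex factor of which C57BL/6J mice are known to carry a shortened form, had 13.74 and 13.36 TPM. Ndufa4, named for complex I but a subunit of complex IV, had 2.55 and 4.96 TPM.

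In ATP synthase, the 5 genes of the catalytic F1 part had a median of 11.0 TPM. Atp5b (chr10:128083273-128090391, plus strand), the catalytic beta subunit, was the highest of all members, with 2175 and 2364 counts and 65.73 and 61.82 TPM (63.8 ± 2.76, SD, n = 2). The alpha subunit Atp5a1 had 33.17 and 32.94 TPM, about the same count (2402 and 2484) over a longer transcript. Both lay above the 90 percentile. The epsilon subunit Atp5e had 9.72 and 12.31 TPM, and the delta subunit Atp5d was lowest with 5.49 and 7.50 TPM. Alpha and beta are present in the same number in the enzyme, and here their gene levels did not overlap. In the alignment-based transcript table, protein-coding transcripts made up 44.2% and 50.0% of the transcript TPM of Atp5b, against 95.4% and 94.0% for Atp5a1. The most abundant transcript of each, annotated as protein-coding, had 29.03 and 30.89 TPM for Atp5b and 30.33 and 26.98 TPM for Atp5a1, values that overlapped.

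The 12 entries of the membrane part and stalk had a median of 13.8 TPM, with 10 above the median protein-coding gene. Atp5l (subunit g) had 16.97 and 18.12 TPM, and Atp5g3, which encodes the ring subunit c, had 15.35 and 18.74 TPM. Atp5k (subunit e, at the dimer interface) had 8.63 and 24.24 TPM, a wider gap than that of any other member above 10 TPM. Apart from the Atp5o entry without counts, Atp5g1 was lowest at 3.02 and 2.78 TPM. Atp5s, placed in a group of its own, had 2.06 and 2.27 TPM.

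Several complex IV subunits exist as a ubiquitous form and as forms made mainly in muscle, heart, lung or testis. In the gene-level table the ubiquitous form held nearly all counts of each family. Of the 7 tissue-restricted complex IV genes, Cox6b2, Cox7b2, Cox8b and Cox8c had 0 counts in both libraries. Cox4i2, the lung form, had 0 and 1 counts, and Cox7a1, the heart and muscle form, had 1 and 2. In bulk RNA, a low level in every cell and expression in few cells cannot be told apart.

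Against the level that 3 counts per library would give, Cox4i1 was at least 191-fold higher than Cox4i2 in replicate 1 of the gene-level table. In replicate 2, Cox4i2 took 0.142% of the family's 705 counts (exact 95% binomial interval 0.00359% to 0.788%). The index-based table breaks this bound: Cox4i2 had 20 and 22 counts there, and Cox4i1 was 63.6-fold and 51.7-fold higher. Cox6b1 had 19.96 and 20.84 TPM and was at least 56.6-fold and 67.7-fold higher than the testis form Cox6b2. Cox8a (chr19:7215153-7217616, minus strand; 12.42 and 18.80 TPM) was at least 19.8-fold and 37.1-fold higher than the muscle form Cox8b, and at least 33.1-fold and 57.7-fold higher than the testis form Cox8c. For Cox8b, 0 of 137 and 0 of 232 family counts allow a share of up to 2.19% and 1.29% when 0 is taken as 3 counts. The upper ends of the exact 95% binomial interval are 2.66% and 1.58%. Cox7b was at least 9.36-fold and 14.2-fold higher than Cox7b2, the loosest bounds, because Cox7b itself had 50 and 63 counts. In the Cox7a family, Cox7a2 had 5.94 and 7.77 TPM and Cox7a1 had 0.17 and 0.28 TPM, which is below the level of 3 counts. In the index-based table Cox7a1 had 18 and 13 counts, and Cox7a2 was 10.6-fold and 12.7-fold higher. Ndufa4l2, the paralog of Ndufa4 known from hypoxic cells, had 0 counts, and Ndufa4 was at least 15.5-fold and 32.8-fold higher. In the index-based table Cox6b2, Cox8c and Ndufa4l2 had 0 and 1 counts, Cox7b2 had 1 and 2, and Cox8b had 6 and 3.

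Cox6a2, the heart and muscle form of Cox6a1, was the tissue-restricted gene with the most counts in the gene-level table, 10 and 12, at 0.65 and 0.72 TPM. It had 18 and 22 counts in the index-based table, close to those of Cox4i2 and Cox7a1. Cox6a1 had 21.28 and 23.05 TPM in the gene-level table, 32.7-fold and 32.0-fold more, and was 26.9-fold and 21.1-fold higher in the index-based one. Cox6a2 took 3.85% (exact 95% interval 1.86% to 6.96%) and 3.82% (1.99% to 6.58%) of the counts of the pair, so its share was alike in both libraries and above the limit that a count of 0 allows. The skeletal muscle markers Acta1, Ckm and Myh4 had 0 counts in both libraries, and of the cardiac markers Myh6 had 0 and Tnnt2 6 in each. An exon of Cox6a2 overlaps Itgad on the other strand, which had 0 and 3 counts.

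The c ring of ATP synthase is encoded by 3 genes whose mature proteins are the same and whose import sequences differ. Atp5g3 took 64.1% and 63.9% of their counts, Atp5g2 19.7% and 26.3%, and Atp5g1 16.2% and 9.84%. Atp5g2 had 5.21 and 8.09 TPM, and its estimated count carried a posterior SD of 12.1% and 9.17%. The source of this uncertainty was not tested. Atp5g3 was highest in both libraries and both tables. Atp5g2 lay above Atp5g1 in the gene-level table and below it in the index-based one (1.09 against 2.02 TPM in replicate 1, 0.833 against 0.914 in replicate 2).

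**Figure D2:**
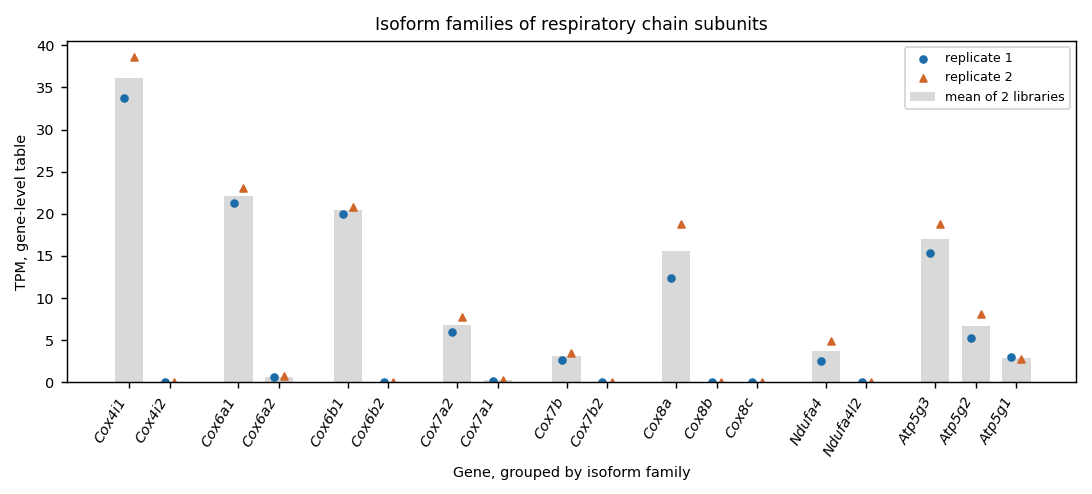
TPM in the gene-level table of each gene of the isoform families, with grey bars for the mean of 2 libraries, circles for replicate 1 and triangles for replicate 2. Ubiquitous forms such as Cox4i1 (33.73 and 38.61 TPM) stand beside tissue-restricted forms at or near 0, while all 3 Atp5g genes were measured.

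Other genes of the pathway were read in the same way. The 4 complex II genes had a median of 10.8 TPM. The flavin subunit Sdha was their highest at 24 and 27.35 TPM, and none of the 4 reached the 2-fold limit of the comparison between libraries below. The iron-sulfur subunit Sdhb came nearest, with 325 and 528 counts (log2 ratio 0.63, exact binomial test, adjusted p = 2.69e-09). Cyc1 had 4.48 and 5.50 TPM and cytochrome c (Cycs) 5.65 and 7.72 TPM. Usmg5, the ATP synthase subunit outside the rule, had 18.9 and 15.67 TPM, and Ndufb1-ps had 6.21 and 9.76 TPM. Ndufb1-ps lay within the range of the complex I accessory subunits in both libraries. Usmg5 lay within that of the membrane part and stalk in replicate 2. In replicate 1 it was above the highest entry of that group, Atp5l with 16.97 TPM. The 28 assembly factors of other names had a median of 2.55 TPM, with 9 above the median protein-coding gene and the copper chaperone Cox17 highest at 17.82 and 20.74 TPM. Among 12 genes that regulate respiratory gene transcription, the nuclear receptor Esrra was highest at 15.46 and 18.16 TPM, Nrf1 had 5.55 and 5.03 TPM, and the coactivator Ppargc1a had 0 counts in both libraries.

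The 13 subunit genes of mitochondrial DNA had a median of 1322 TPM and a range of 62.8 (mt-Co2) to 8223 TPM (mt-Co1). The lowest, mt-Co2, was level with Atp5b, the highest member. They took 3.69% and 2.95% of all counts in this nuclear fraction. Their part in the levels of the nuclear-encoded genes was not tested, but mitochondrial RNA enters the total to which TPM is scaled. The 13 genes summed to 32059 and 23308 TPM in replicates 1 and 2. All protein-coding genes tested, these included, summed to 210330 and 219382 TPM, against 998739 and 997413 TPM for all genes tested. Genes not annotated as protein-coding thus took most of that total.

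The counts of each gene were then compared between the libraries, which tests these libraries and not a condition. An exact two-sided binomial test against the TMM-scaled library shares, adjusted by Benjamini-Hochberg over 16140 genes, called 3 of 82 members (3.66%) at an adjusted p under 0.05 and a change of 2-fold or more. By the same rule 6.65% of all genes and 4.14% of protein-coding genes were called. The members' share was thus near the background of protein-coding genes of all lengths. All 3 were higher in replicate 2, the direction in which 4.63% of all genes and 2.52% of protein-coding genes were called. There is no replicate check of these differences.

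Atp5k (chr5:108433244-108434448, minus strand) had 72 counts in replicate 1 and 213 in replicate 2, a log2 ratio of 1.49 (exact binomial test, Benjamini-Hochberg adjusted p = 7.1e-15). Its named pseudogenes Atp5k-ps2 and Gm11438 had 0 counts. Ndufa2, an accessory subunit of complex I with a thioredoxin-like fold, had 76 and 163 counts (log2 ratio 1.03, adjusted p = 8.12e-07). Its exons overlap Tmco6 on the other strand, which had 132 and 158 counts. Ndufa4 (chr6:11900292-11907497, minus strand) had 36 and 77 counts (log2 ratio 1.02, adjusted p = 0.00129). Ndufa2 and Ndufa4 sat at the 2-fold limit. With library sizes as plain totals, and in the index-based transcript table, only Atp5k was called, at log2 ratios of 1.41 and 1.22. Under these rules 6.53% and 9.26% of all genes were called. The dispersion of an edgeR exact test was set to assumed values, as 1 library against 1 cannot give an estimate. With 0.04, an allowance for spread between cultures, the test called none of the members (Atp5k adjusted p = 0.0857) and 1.21% of all genes. In that test all 3 had an unadjusted p under 0.05. With a dispersion of 0.01, it called Atp5k (adjusted p = 8.49e-06) and Ndufa2 (adjusted p = 0.00782) and 4.59% of all genes. Among members with 100 or more counts in both libraries, the largest difference was that of Cox8a, with 137 and 232 counts (log2 ratio 0.69, adjusted p = 3.74e-05), which is below the 2-fold limit.

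**Figure D3:**
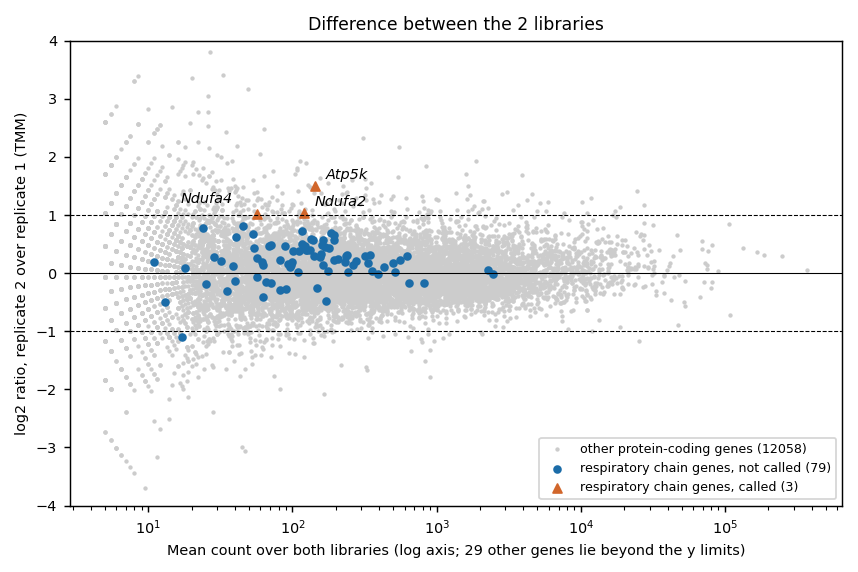
Log2 ratio of replicate 2 over replicate 1 (TMM-scaled) against the mean count on a log axis, with other protein-coding genes in grey, the 79 members not called as blue circles and the 3 called ones as orange triangles. Dashed lines mark 2-fold; most members lie slightly above 0.

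Most members were slightly higher in replicate 2. The log2 ratio was above 0 in 65 of 82 and below 0 in 17, with a median of 0.22. The medians were -0.03 over protein-coding genes and 0.01 over all genes tested. Without the fold limit, 22 of 82 members (26.8%) had an adjusted p under 0.05, against 42.2% of protein-coding genes. Complex II genes had a median log2 ratio of -0.01 and cytosolic ribosomal protein genes one of 0.11. Among the role groups, the medians were 0.30 for complex I core, 0.24 for complex III, 0.26 for ubiquitous complex IV, 0.05 for F1 and 0.29 for the membrane part and stalk of ATP synthase. The assembly factors stood at -0.12, with 3 above and 5 below 0. Of the 7 core subunits, 2 went the other way: Ndufv2, with 195 and 146 counts (log2 ratio -0.48, exact binomial test, adjusted p = 0.00798), and Ndufs1, with 849.16 and 790.26 (log2 ratio -0.17, adjusted p = 0.0463).

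The members were short, and transcript length moved with the ratio over all genes. The members tested had a median length of 746 bases, against 2486 bases over protein-coding genes. Under 600 bases the median log2 ratio was 0.34 for 20 members and 0.45 for 166 protein-coding genes. From 600 to 1200 bases it was 0.25 for 45 members and 0.20 for 1355 protein-coding genes. At 1200 bases and over it was 0.12 for 17 members and -0.05 for 10619 protein-coding genes. The members' ratios thus lay near those of protein-coding genes of their own length in the shorter classes and above them in the longest. From the shortest class to the longest, 2, 1 and 0 members were called (10%, 2.22% and 0%). The shares over protein-coding genes were 18.7%, 6.05% and 3.67%. Each was above that of the members, but with so few members called these gaps rest on few genes and show no difference. The part of length in the difference was not tested beyond these classes.

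**Figure D4:**
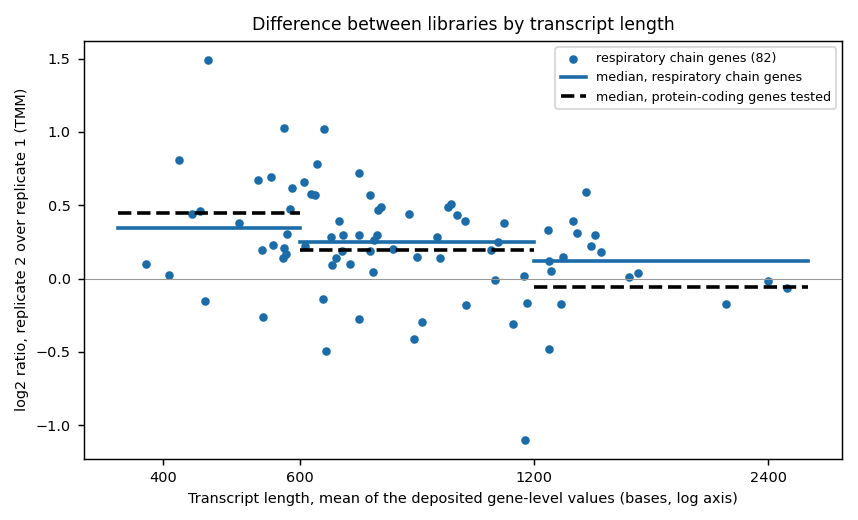
Log2 ratio of replicate 2 over replicate 1 for the 82 members tested (points) against transcript length on a log axis. Blue lines are member medians and dashed lines protein-coding medians in 3 length classes; both step down as length rises, from 0.34 and 0.45 to 0.12 and -0.05.

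Transcript classes were read from the alignment-based transcript table. In 38 of 43 members with 100 or more counts in both libraries (88.4%), the most abundant transcript was annotated as protein-coding, the same share as over 7841 protein-coding genes (88.4%). The exceptions were transcripts of Atp5f1 and Ndufa3 annotated as targets of nonsense-mediated decay, retained-intron transcripts of Atp5j and Ndufab1, and a processed transcript of Ndufs7. For Ndufa3, the highest accessory subunit, the decay-annotated transcript made up 69.0% of the gene's transcript TPM.

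Retained-intron transcripts, which keep an intron in an otherwise spliced RNA, took a median of 15.6% of transcript TPM in the 31 members with 100 or more counts in both libraries and such a transcript annotated. The median over 5156 protein-coding genes chosen alike was 21.4%. A share above 20% was found in 10 of 31 members (32.3%) and in 52.9% of protein-coding genes. In the index-based table it was found in 16 of 31 (51.6%) and in 64.1%. In total RNA of a nuclear fraction, reads from RNA not yet spliced can also be assigned to retained-intron transcripts. The shares therefore do not tell a retained intron from RNA still to be spliced. Ndufab1, the mitochondrial acyl carrier protein that also sits in complex I, was highest with 92.6% and 79.8% (86.2% ± 9.06, SD, n = 2). Atp5j, a stalk subunit, had 76.8% and 75.2%. Atp5j lies beside Gabpa on the other strand with exons that overlap, and Gabpa had 668 and 612.8 counts against 146 and 242.2 for Atp5j. Ndufa10 had 44.8% and 33.8%, Ndufs1 39.6% and 37.9%, and the stalk subunit Atp5f1 37.4% and 37.6%. In this table the shares of Ndufab1 and Atp5j lay above all others in both libraries. In the index-based table the same 5 genes had 74.4%, 63.2%, 50.3%, 50.5% and 39.8%, and Ndufb2 (66.7%) and Ndufa6 (54.0%) came among them. Ndufs7, the lowest at 1.87%, had 42.2% there, so its share depended on the table.

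**Figure D5:**
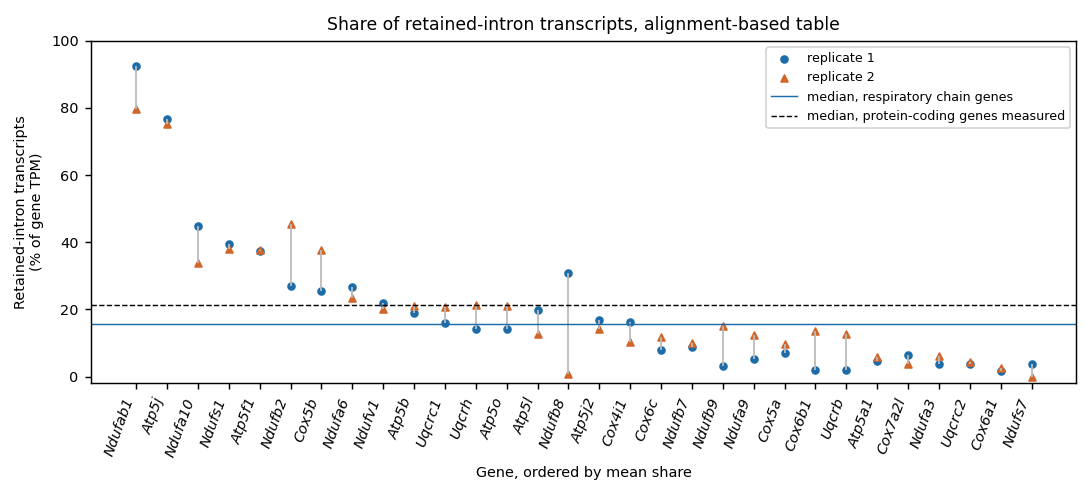
Percent of each gene's transcript TPM in retained-intron transcripts, alignment-based table, for the members named on the axis in replicate 1 (circles) and replicate 2 (triangles). The solid line is the member median (15.6%) and the dashed line that of protein-coding genes (21.4%); Ndufab1 and Atp5j lie far above both.

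The member genes lie on 19 chromosomes, with a median span of 7245 bases (953 to 242585) and a median of 4 exons. The longest span is that of the Atp5o entry without counts, and the next is that of Ndufaf2 with 155909 bases. Neighbours were few: the closest pair of different genes, Ndufs8 and Ndufv1, are 94610 bases apart, and Atp5d and Ndufs7 103303. Exons of 29 members overlap a gene on the other strand, and in 7 of them the partner had more counts, such as Braf at Ndufb2 (2275.91 and 2178.89 against 107.09 and 146.92) and Vps13b at Cox6c. Values of these members are uncertain, as no source used here says whether counting used strand. After scaling to protein-coding genes, the index-based level was a median of 0.914 times the gene-level one over 43 members (0.719 to 2.02, the latter Ndufb2). None of these 43 differed by more than 4-fold. Of all 84 members above 0 in the gene-level table, only Cox4i2 and Cox7a1 did, both at few counts.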

How the data were processed

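Nuclear RNA of 1 group of 2 libraries was quantified by the authors against mm10 and GENCODE M21, per the file headers; the aligner, the quantification tools and any use of strand are not given in the sources used. Deposited by the authors were expected counts per gene (estimates that can be fractional), TPM and FPKM (scaled by length and depth), and a posterior SD of the count, used here as a score. They also deposited an alignment-based and an index-based transcript table. Rows that name no gene were left out, which kept 99.9% of counts in both libraries, and expected counts were rounded for tests.

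With 1 library against 1, no quasi-likelihood model has residual degrees of freedom, so a two-sided exact binomial test was run against TMM library shares (edgeR 4.0.16, R 4.3.3; tables with pandas 2.3.3 and scipy 1.17.1 in Python 3.11.15). It used genes whose counts over both libraries reached 10, 0.5 added for ratios, Benjamini-Hochberg adjustment, an adjusted p under 0.05 and a log2 ratio of at least 1. The script was checked on simulated counts. Levels are means of 2 libraries, with 0.1 added to TPM before logs.

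Values are given for the 3 highest and the lowest members of each role group, tissue-restricted isoforms and their partners, called members, the largest ratio at 100 or more counts, and the 5 highest retained-intron shares; others named were chosen after their values were seen. The values of 1 member that this rule would name are not reported here. The members, role groups, pathway lists, markers and motifs were chosen with earlier results of these data known, as were the length classes. Alternatives changed scaling (library totals, DESeq2 1.42.0 size factors), count minimums, pseudocounts, dispersions, the table and the libraries included.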

Additional observations from a re-analysis of the deposited data

How the results depend on the processing

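Depth limited the isoform bounds and the assembly factors, which rest on few counts. No paired analysis was possible because the series holds 1 group. The members' median level, 2.67 as log2(TPM + 0.1), was 4.87 with TPM scaled to protein-coding genes, 1.46 in the index-based table, 3.29 as FPKM and 2.86 with 1 added; with 1 library left out it was 2.5 to 2.69. The 61 members above the median protein-coding gene became 82 without a minimum count, which lowers the median, and 55 in the index-based table. They became 33 at 100 or more counts in both libraries, where 43 members were left, and 59 to 62 with 1 library left out. The 3 above the 90 percentile became 13 without a minimum count, which lowers the percentile, and 1 at 100 or more counts; they numbered 3 without either library. The 3 members called between libraries became 1 with library totals (6.53% of all genes called) and 1 in the index-based table. None was called at 100 or more counts (binomial test, 1.99% of all genes called), where none of the 3 was tested. At that minimum 23 of 43 members (53.5%) had an unadjusted binomial p under 0.05, against 61.5% of protein-coding genes. The edgeR exact test called none at a dispersion of 0.04 and 2 at 0.01. The median log2 ratio of 0.22 was 0.15 with library totals and 0.26 in the index-based table, and stayed above 0 under all 6 alternatives run for it. Library totals moved the median of all genes from 0.01 to -0.07 and of protein-coding genes to -0.10. The median retained-intron share of 15.6% was 20.8% in the index-based table and 16.7% at 10 or more counts; with 1 library left out it was 13.5% to 14.3%.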
